A study of Mus musculus with 8 samples.

Results

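The genes described here carry out and regulate glycolysis and the use of its product, pyruvate. They were chosen by name as 32 mouse genes: glucose transporters, the enzymes from hexokinase to lactate dehydrogenase, the enzymes that make and degrade fructose 2,6-bisphosphate, pyruvate dehydrogenase with its inhibitory kinases, and the carriers of lactate and pyruvate. Earlier results of these data were known when they were chosen. Of 21517 genes listed in the data, all 32 were found in morulae and in blastocysts, and all 32 had a mean of at least 10 in both, the level required for a test. A second Aldoa gene identifier lay below that mean and was not used.

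Polyadenylated RNA was measured in 8 libraries of mouse embryos, 2 for each of 4 groups, with 20 embryos in each library. The groups were NC morulae, Snf2h KD morulae, NC blastocysts and Snf2h KD blastocysts. Snf2h is another name of Smarca5, an ATPase of ISWI chromatin remodelling complexes. Embryos were taken at E3.75 and E4.25, but which day belongs to which stage, the strain, how the knockdown was made and what NC received were not stated in the sources used here. The labels do not tie the 2 libraries of a group to different litters, mothers or collections, so they may be technical repeats. The SE and the p-values rest on the spread among such libraries. In the limma test the spread of each gene is also drawn toward a trend over all genes tested. Each stage has a table of its own, scaled within itself, so KD was compared with NC within a stage and levels were not compared across stages.

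Glycolysis splits glucose into pyruvate in the cytosol. Hexokinase traps glucose as glucose 6-phosphate, phosphofructokinase commits it to the pathway, and the later enzymes recover ATP and NADH. Pyruvate is then reduced to lactate by lactate dehydrogenase or carried into mitochondria and converted to acetyl-CoA by pyruvate dehydrogenase, which its kinases switch off. Cleavage-stage mouse embryos rely on pyruvate and lactate as fuels, and glucose use increases as the blastocyst forms.

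The targeted gene was low in the KD libraries. Smarca5 was at 9678 and 9760 normalized abundance units in the NC morulae and at 501 and 470.4 in the KD morulae, 20.0-fold lower (log2 difference -4.32, SE 0.13, limma adjusted p = 1.88e-04). In blastocysts it was at 7000 and 8283 in NC and at 906 and 855 in KD, 8.68-fold lower (log2 difference -3.11, SE 0.12, adjusted p = 5.93e-04). Estimated depth was 16177240 to 18568756 reads in the morula libraries and 13958296 to 23304923 in the blastocyst libraries. Markers of preimplantation embryos were present in every library: the trophectoderm gene Cdx2 was at 2988 or more and the pluripotency gene Pou5f1 at 19699 or more in all 8. Because the tables are scaled apart, these levels do not check which stage a library holds.

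No gene of the set passed the test across all genes (limma, Benjamini-Hochberg adjusted p under 0.05) at either stage. In morulae that test called 0.00746% of the 13404 genes tested, which is Smarca5 alone, and in blastocysts 0.0879% of 13651, with 0.0366% higher and 0.0513% lower in KD. At an unadjusted p under 0.05, 11 of the 32 genes were called in morulae, beside 10.4% of all genes. Of these, 8 were higher in KD (5.16% of all genes) and 3 lower (5.22%). In blastocysts 8 of 32 were, beside 17.6% of all genes, with 7 higher (8.83%) and 1 lower (8.73%). The lowest adjusted p of the set was that of Gapdh at both stages, 0.362 in morulae and 0.110 in blastocysts. The values below are therefore given as levels and as whether the KD libraries lay apart from the NC libraries, and differences are on the scale of log2(value + 1), KD minus NC.

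In morulae both KD libraries lay above both NC libraries for 11 of the 32 genes, a state found for 20.7% of all genes tested. They lay below for 4 of 32, beside 21.2% of all genes. The log2 difference was above 0 for 23 of 32, beside 49.2% of all genes, below 0 for 9, beside 50.8%, and its median over the set was 0.16, beside -0.01 over all genes. In blastocysts KD lay above NC for 10 of 32 (24.6% of all genes) and below for 8 (24.9%). There 18 of 32 differences were above 0 and 14 below, beside 50.3% and 49.7% of all genes, with a median of 0.05 beside 0.00. With a log2 difference of at least 0.5 in addition, 6 genes were higher (9.85% of all genes) and 2 lower (7.97%) in KD morulae, and 6 were higher (10.5%) and 3 lower (9.22%) in KD blastocysts. The share of the set lying lower in KD blastocysts was thus close to that of all genes. Leaving out a single library moved 6 of the 15 differences of genes that lay apart in morulae, and 13 of the 18 in blastocysts, by over 1.5 times. None of the 33 turned sign, which was fixed in advance, because only genes whose libraries lay apart were taken. For each that moved so far, the log2 difference nearest to 0 is given below with the library left out. It stands after the p or in the next sentence.

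A group of 7 genes lay apart in the same direction at both stages, 21.9% of the set beside 18.9% of all genes tested at both. That share is close to the background, so their number is no result about the set. Pfkp, Gapdh, Pgk1, Ldha and Pfkfb1 were higher in KD at both (5 of 32, beside 9.41% of all genes), and the pyruvate carrier subunits Mpc1 and Mpc2 were lower (2 of 32, beside 9.54%). Slc16a3 alone lay apart in opposite directions, beside 4.33% of all genes. By role, the genes higher at both stages encode a phosphofructokinase subunit, the enzymes of the first NADH- and ATP-yielding steps, a lactate dehydrogenase subunit and an enzyme of fructose 2,6-bisphosphate control.

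**Figure D1:**
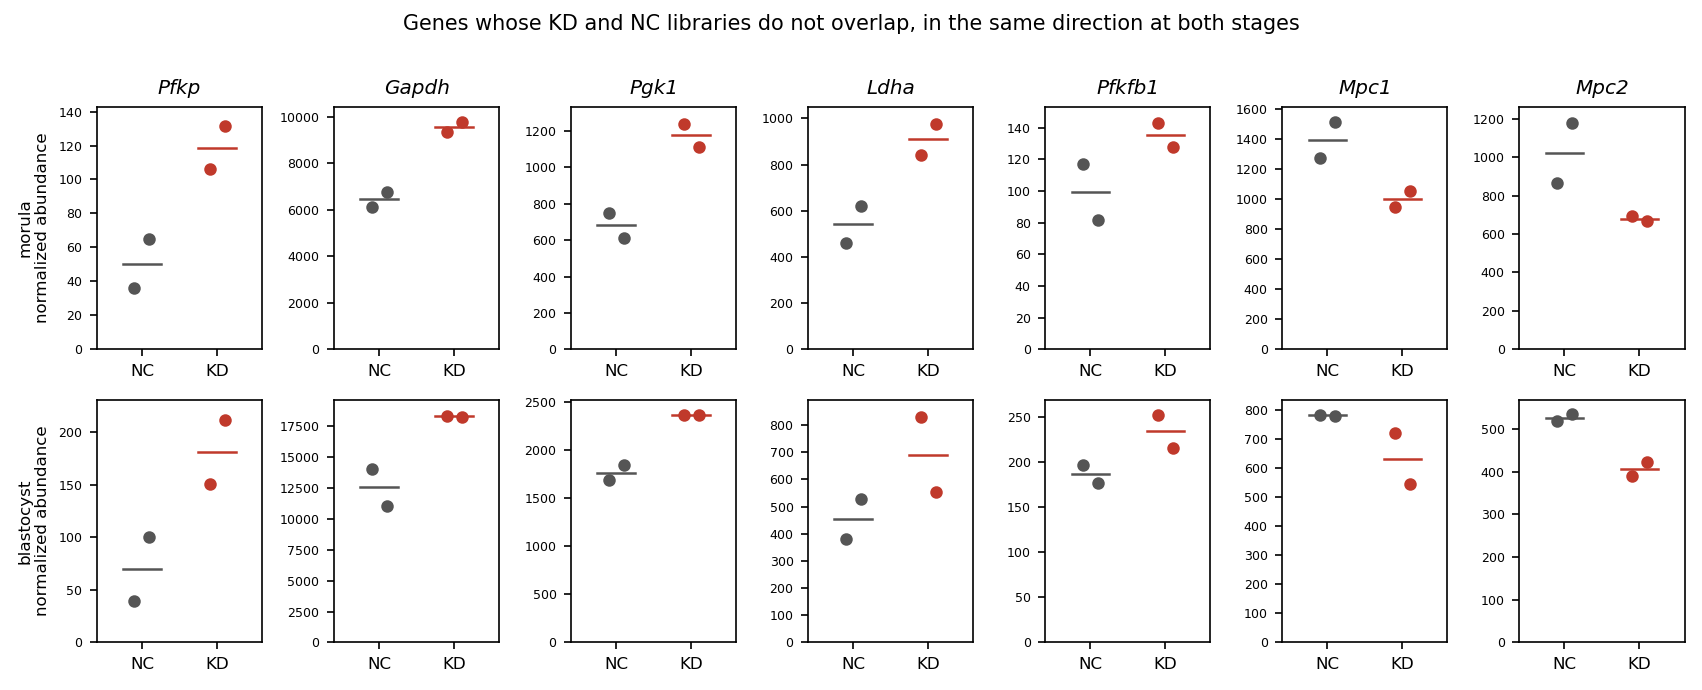
Normalized abundance per library (linear axis from 0) of the 7 genes whose KD and NC libraries did not overlap, in the same direction, at both stages. Each point is a library of 20 embryos and each line a group mean; in every panel the 2 KD points of a stage lie on one side of its 2 NC points.

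The sequences upstream of these genes are shown as a description of the genes named above, and because some glycolytic promoters carry the core of the hypoxia response element, the site to which hypoxia-inducible factors bind. Each is the 250 bases before the first-listed start of transcription in RefSeq on GRCm38.p6, read along the gene's strand. The windows are chr13:6648772-6649021 (minus strand) for Pfkp, chr6:125165774-125166023 (minus) for Gapdh, chrX:106186850-106187099 (plus) for Pgk1, chr7:46845554-46845803 (plus) for Ldha, chr17:8283537-8283786 (plus) for Mpc1 and chr1:165461010-165461259 (plus) for Mpc2. Pfkfb1 has 4 listed starts and is not shown. Capitals mark ACGTG, a form of that core, and its reverse complement CACGT, so both strands were searched. The E-box CACGTG contains both and counts as 2 matches. The form GCGTG was not searched, so lower case does not show that it is absent.
Pfkp: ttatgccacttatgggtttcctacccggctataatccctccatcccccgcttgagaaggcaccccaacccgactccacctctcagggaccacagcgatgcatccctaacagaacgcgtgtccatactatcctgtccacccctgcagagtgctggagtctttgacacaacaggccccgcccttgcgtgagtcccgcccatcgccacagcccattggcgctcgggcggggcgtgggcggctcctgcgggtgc
Gapdh: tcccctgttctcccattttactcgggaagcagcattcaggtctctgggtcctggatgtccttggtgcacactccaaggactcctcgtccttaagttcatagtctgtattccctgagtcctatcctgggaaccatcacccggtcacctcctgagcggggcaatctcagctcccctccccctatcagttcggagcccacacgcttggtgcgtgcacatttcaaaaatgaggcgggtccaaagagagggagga
Pgk1: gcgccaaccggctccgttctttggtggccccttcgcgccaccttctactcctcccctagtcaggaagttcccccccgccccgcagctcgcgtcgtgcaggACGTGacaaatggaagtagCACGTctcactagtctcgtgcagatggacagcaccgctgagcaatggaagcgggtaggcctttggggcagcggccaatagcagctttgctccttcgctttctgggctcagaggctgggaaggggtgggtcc
Ldha: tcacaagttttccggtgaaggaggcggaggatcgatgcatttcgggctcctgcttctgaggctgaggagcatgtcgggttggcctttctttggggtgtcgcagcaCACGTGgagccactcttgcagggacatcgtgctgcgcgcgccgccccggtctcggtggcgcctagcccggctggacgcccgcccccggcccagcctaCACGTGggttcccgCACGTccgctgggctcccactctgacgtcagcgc
Mpc1: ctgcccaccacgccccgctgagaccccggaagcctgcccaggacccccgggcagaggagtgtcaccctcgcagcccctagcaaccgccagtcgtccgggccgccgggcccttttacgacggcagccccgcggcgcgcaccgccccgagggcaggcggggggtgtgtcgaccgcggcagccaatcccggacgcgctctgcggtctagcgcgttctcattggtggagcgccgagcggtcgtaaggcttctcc
Mpc2: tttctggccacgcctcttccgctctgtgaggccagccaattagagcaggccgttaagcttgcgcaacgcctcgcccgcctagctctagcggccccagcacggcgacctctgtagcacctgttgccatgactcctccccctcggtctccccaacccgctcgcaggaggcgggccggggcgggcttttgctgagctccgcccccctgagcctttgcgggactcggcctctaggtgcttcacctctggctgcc

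The Pgk1 window held 2 matches and the Ldha window 5, of which 4 lay in 2 E-boxes. Ldha has a second listed start, and its window, chr7:46846832-46847081, held none; the first bases transcribed from the start shown were in no GENCODE transcript of Ldha, while those of the second start were. The Pfkp, Gapdh, Mpc1 and Mpc2 windows held no ACGTG or CACGT in these 250 bases, and neither did the second listed window of Mpc1. The form GCGTG was not counted, and the windows shown of these genes each hold it or its reverse complement CACGC. A window with ACGTG on either strand was found for 14 of the 31 genes of the set with a listed start; 18 of their 51 windows (35.3%) held it, beside 16.6% of all 32851 windows. The E-box CACGTG was in 11.8% of the set's windows beside 6.02% of all, and the GC box GGGCGG in 49.0% beside 32.7%. Hk2, which lay lower in KD morulae, and Slc16a3, which lay apart in opposite directions, also held 2 matches of ACGTG each. These matches are descriptions of sequence, and no binding was measured.

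Of the glucose transporters, the set holds SLC2A1 (GLUT1) and SLC2A3 (GLUT3). Slc2a3 was the more abundant per kilobase of exon in every library, with 76.7% to 85.1% of the summed level of the pair. Slc2a3 was at 16884 and 16729.7 in NC morulae and at 13732 and 21178 in KD morulae. In blastocysts it was at 27344 and 18226 in NC and at 34080.0 and 25909 in KD. Its KD and NC libraries overlapped at both stages. Slc2a1 was at 1429 and 1719 in NC morulae and at 2023 and 2253 in KD, 1.36-fold higher without overlap (log2 difference 0.45, SE 0.15, adjusted p = 0.429). In blastocysts Slc2a1 was at 3334 and 2299 in NC and at 3649 and 3156 in KD, where the groups overlapped. Slc2a8, a further gene of this family outside the set, was not in the sum of the pair. It was at 2246 and 2864 in NC morulae and at 2305 and 2404 in KD. In blastocysts Slc2a8 was at 1507 and 1872 in NC and at 1448 and 1568 in KD.

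Hexokinase was represented by Hk1 and Hk2, the latter a form regulated in growing and insulin-responsive cells. In NC morulae Hk2 was at 2257 and 1919, and in KD morulae at 1436 and 1646, 1.36-fold lower without overlap (log2 difference -0.44, SE 0.15, adjusted p = 0.432). Hk1 was at 2627 and 4299 in NC morulae and at 1977 and 2741 in KD morulae, a lower mean with overlapping libraries. In blastocysts Hk2 was at 7586 and 8136 in NC and at 7617 and 7131 in KD, and Hk1 at 1398 and 1001 in NC and at 1303 and 669 in KD. Neither lay apart there. Per kilobase, Hk2 held 88.6% to 93.8% of the sum of Hk1 and Hk2 in the 4 blastocyst libraries. It held 38.9% to 55.1% in the 4 morula libraries, and KD did not separate from NC at either stage. Hkdc1, a further hexokinase gene outside the set, was not in that sum. It was at 575 and 374 in NC morulae and at 339 and 709 in KD. In blastocysts Hkdc1 was at 1761 and 463 in NC and at 1759 and 499 in KD. In NC morulae the mean Hk2 share was 47.0% per kilobase of exon, 38.5% without length and 32.9% by the longest transcript, so Hk1 had the larger mean by each measure. The order in single morula libraries, such as the first NC library at 55.1% Hk2 per kilobase and 46.2% without length, depended on the length used.

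Gpi1, the isomerase that follows hexokinase, was at 2692 and 2715 in NC morulae and at 3084 and 3152 in KD, a log2 difference of 0.21 (adjusted p = 0.602). Phosphofructokinase is a tetramer built from liver (Pfkl), muscle (Pfkm) and platelet (Pfkp) subunits. Pfkl had 73.9% to 87.1% of their summed level per kilobase. In morulae Pfkl was at 378 and 731 in NC and at 871 and 984 in KD, 1.67-fold higher (log2 difference 0.82, SE 0.31, adjusted p = 0.464). That difference depended on the first NC library, since it was 0.34 without it. In blastocysts Pfkl overlapped, at 774 and 1263 in NC and at 1260.2 and 1500.3 in KD. Pfkm overlapped at both stages, from 38.1 to 61.8 in morulae and from 104 to 144 in blastocysts.

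Pfkp (ENSMUSG00000021196, mm10 chr13:6579768-6648777) had the largest differences of the genes that lay apart in the same direction at both stages. It was at 35.8 and 65.2 in NC morulae and at 106 and 131 in KD morulae, 2.35-fold higher (log2 difference 1.27, SE 0.43, adjusted p = 0.426; 0.85 without the first NC library). In blastocysts it was at 39.5 and 100.01 in NC and at 150.4 and 211 in KD, 2.59-fold higher (log2 difference 1.49, SE 0.47, adjusted p = 0.190; 0.83 without the first NC library). At both stages the lower NC library was the first replicate, and on the linear scale the gap to the KD libraries exceeded the gap between NC libraries only in morulae. Its share of the phosphofructokinase level per kilobase was 3.57% and 3.87% in NC morulae and 5.17% and 5.57% in KD. In blastocysts the share was 1.88% and 3.15% in NC and 4.62% and 5.80% in KD. Per kilobase, Pfkp was the least abundant of the 3 subunits in all 8 libraries.

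Aldolase was almost wholly Aldoa, with 99.7% to 99.9% of the level per kilobase. Aldoa was the most abundant gene of the set per kilobase in NC embryos of both stages, at 3351 per kilobase in morulae and 5123 in blastocysts. It was at 9249 and 10259.9 in NC morulae and at 9031 and 10115 in KD. In blastocysts Aldoa was at 14944 and 14881 in NC and at 15937 and 15283 in KD, a separation of only 0.07 on the log2 scale (adjusted p = 0.691; 0.035 without the first KD library). Aldoc, in blastocysts at 49.0 and 23.5 in NC but at 15.5 and 18.5 in KD, was lower without overlap (log2 difference -0.97, SE 0.57, adjusted p = 0.430). Without the first NC library the difference was -0.45. In morulae Aldoc lay between 10.8 and 17.3 with overlap. Tpi1, the isomerase of the triose phosphates, overlapped in morulae and had a log2 difference of 0.22 in blastocysts, at 2459 and 2553 in NC and at 2578 and 3310.1 in KD. That difference was 0.041 without the second KD library.

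**Figure D2:**
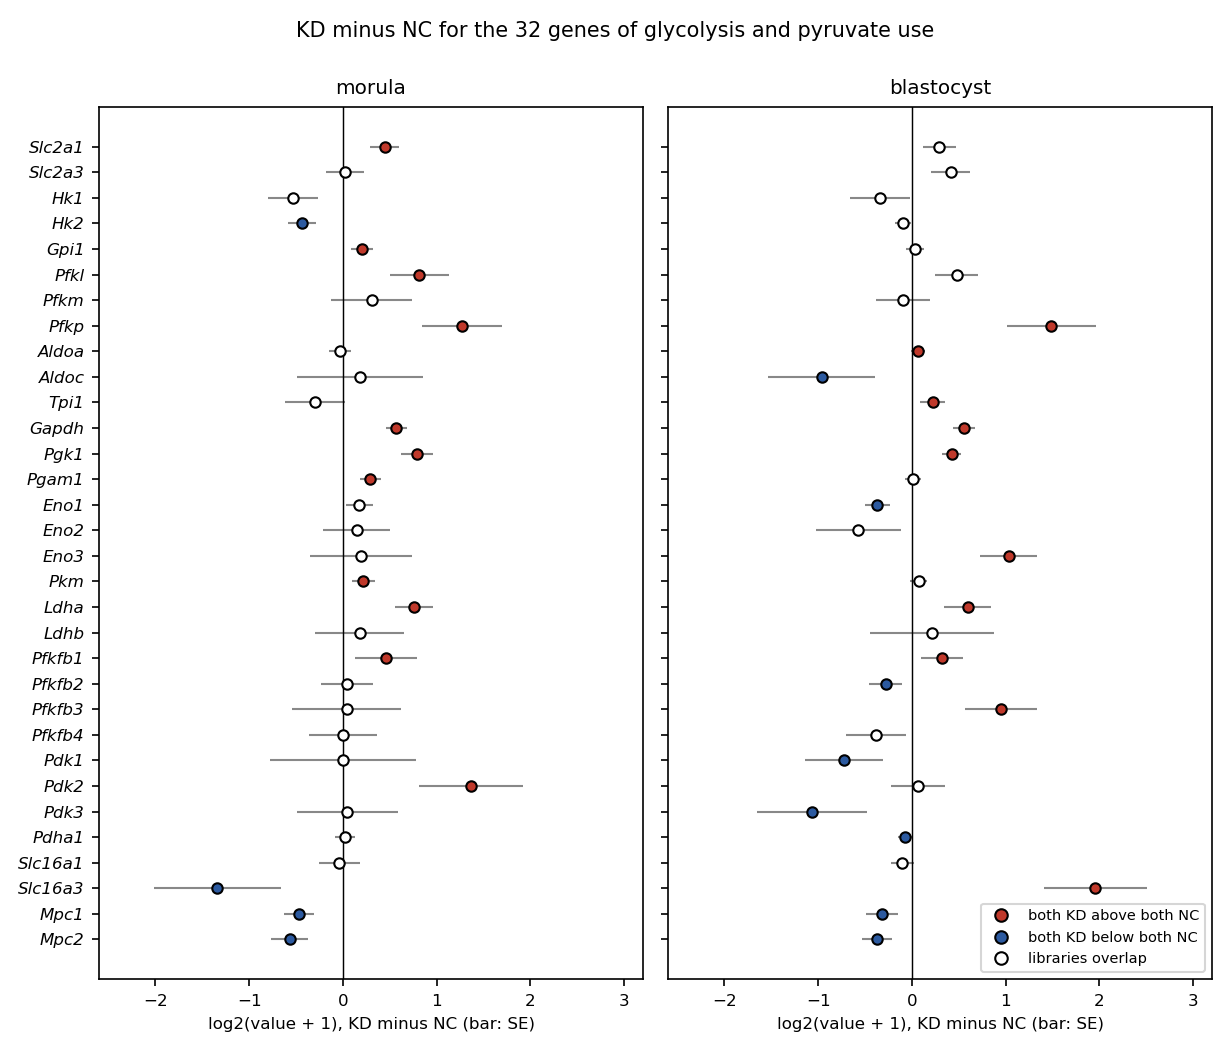
Log2 differences (KD minus NC, on log2(value + 1)) of the 32 genes with their SE, ordered by step of the pathway, in morulae and blastocysts. Red points mark genes with both KD libraries above both NC libraries, blue points those with both below and open points an overlap; none passed the test across all genes.

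Gapdh (ENSMUSG00000057666, mm10 chr6:125161715-125166467) encodes the dehydrogenase that makes NADH. It was at 6140.1 and 6756 in NC morulae and at 9353 and 9763 in KD morulae, 1.48-fold higher (log2 difference 0.57, SE 0.11, adjusted p = 0.362). In blastocysts Gapdh was at 14063 and 11073 in NC and at 18360.5 and 18261 in KD, 1.46-fold higher (log2 difference 0.55, SE 0.12, adjusted p = 0.110). The KD libraries were close together and well above NC at both stages.

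Gapdh has many processed pseudogenes, and reads could be split among them. Of 79 annotated copies with at least 95% identity to its coding sequence over 200 or more bases, 44 were listed in the morula table and 53 in the blastocyst table. They made up 36.3% to 48.1% of the summed value of gene and copies in morulae and 44.0% to 50.6% in blastocysts. Summed with these copies, Gapdh was 1.41-fold higher in KD morulae (11793 and 11892 in NC, 18034 and 15337 in KD) and 1.46-fold higher in KD blastocysts (25132 and 22408 in NC, 34417 and 34845 in KD). The libraries did not overlap in either sum.

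Pgk1 (ENSMUSG00000062070, mm10 chrX:106187100-106203699), the kinase that makes the first ATP of the pathway, was at 752 and 613 in NC morulae and at 1239 and 1115 in KD. It was 1.72-fold higher there (log2 difference 0.79, SE 0.18, adjusted p = 0.362). In blastocysts Pgk1 was at 1687 and 1847 in NC and at 2370.3 and 2363 in KD, 1.34-fold higher (log2 difference 0.42, SE 0.10, adjusted p = 0.127). None of its 4 annotated near-identical copies was listed in either table. Pgam1, the mutase of the next step, was at 5162 and 5019 in NC morulae and at 6387 and 6093 in KD, 1.23-fold higher (log2 difference 0.29, SE 0.11, adjusted p = 0.452). In blastocysts Pgam1 overlapped, at 5064 and 4653 in NC and at 4958 and 4821 in KD.

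Enolase was mostly the ubiquitous form Eno1, with smaller parts of the neuronal form Eno2 and the muscle form Eno3. In blastocysts Eno1 was at 4459 and 4210.5 in NC and at 3798 and 2969 in KD, 1.28-fold lower (log2 difference -0.37, SE 0.13, limma unadjusted p = 0.0275, adjusted p = 0.224; -0.19 without the second KD library). Eno3 was at 411 and 232 in NC blastocysts and at 752 and 533 in KD, 2.00-fold higher (log2 difference 1.03, SE 0.31, adjusted p = 0.173; 0.62 without the second NC library). The Eno3 share of the enolase level per kilobase was 21.3% and 14.3% in NC blastocysts, and it was 37.2% and 35.0% in KD blastocysts. The mean share was smaller without length, 6.60% in NC and 15.5% in KD, and by the longest transcript, 8.46% and 19.3%. Higher KD shares were found by each measure.

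In morulae the enolases did not lie apart. Eno1 was at 2642 and 2236 in NC morulae and at 2613 and 2877 in KD, and Eno3 was at 174 and 56.0 in NC and at 121 and 106 in KD. Eno2 overlapped at both stages, at 186 to 378 in morulae and at 80.0 to 219 in blastocysts. Eno1 has 3 near-identical copies that held 22.0% to 30.3% of the sum of gene and copies in blastocysts. That sum was also lower in KD blastocysts, at 6143 and 5815 in NC and at 4871 and 4261 in KD.

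Pyruvate kinase, which makes pyruvate, was represented by Pkm, at 6712 and 7355 in NC morulae and at 7669 and 8720.2 in KD. Its log2 difference there was 0.22 (SE 0.12, adjusted p = 0.589; 0.13 without the second KD library). In blastocysts Pkm overlapped, at 11437 and 9888 in NC and at 11198 and 11131 in KD. Gene-level values do not separate the Pkm splice forms.

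Ldha (ENSMUSG00000063229, mm10 chr7:46841475-46855627), the lactate dehydrogenase subunit that favours lactate formation, was higher in KD at both stages. In morulae it was at 462 and 621 in NC and at 843 and 975 in KD, 1.68-fold higher (log2 difference 0.76, SE 0.21, adjusted p = 0.377). In blastocysts it was at 381 and 527 in NC and at 828 and 553 in KD, 1.52-fold higher (log2 difference 0.59, SE 0.25, adjusted p = 0.284). The second KD blastocyst library lay only just above the higher NC library, and the difference was 0.30 without the first KD library. Ldhb, the heart-type subunit, overlapped at both stages, at 36.8 to 64.6 in morulae and 10.7 to 24.8 in blastocysts. Ldha held 84.4% to 95.9% of the level per kilobase.

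**Figure D3:**
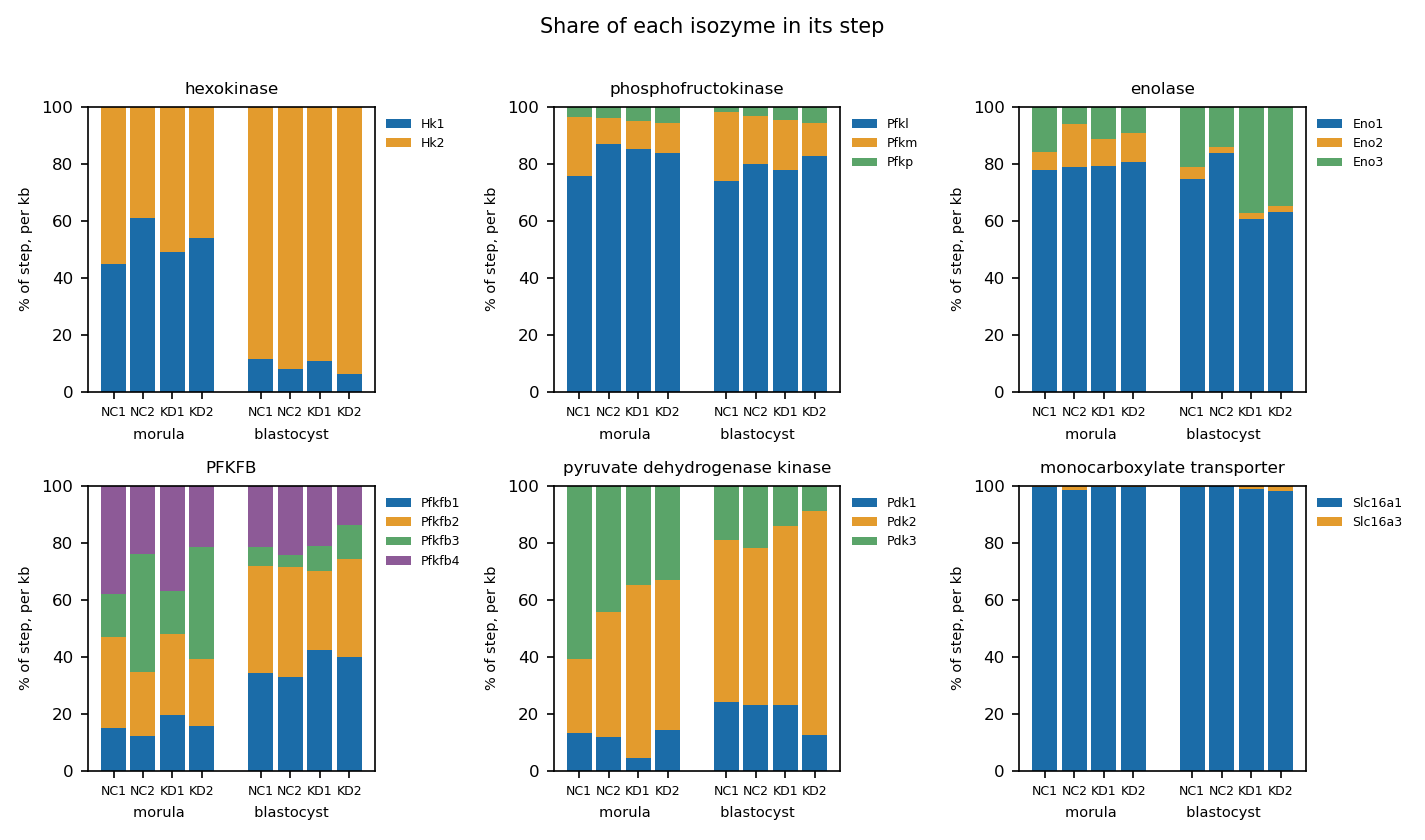
Share (%) of each isozyme in the summed level per kilobase of its step, as stacked bars for each library, for 6 steps of glycolysis and pyruvate use. Each sum holds only the isozymes of the set. The Eno3 share in blastocysts was 14.3% to 21.3% in NC and 35.0% to 37.2% in KD. Hk2 held 88.6% to 93.8% of the sum of Hk1 and Hk2 in all 4 blastocyst libraries.

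The 4 PFKFB enzymes make and degrade fructose 2,6-bisphosphate, the main allosteric activator of phosphofructokinase. Pfkfb1 was at 117 and 82.0 in NC morulae and at 143 and 128 in KD (1.36-fold higher, log2 difference 0.46, SE 0.33, adjusted p = 0.681; 0.21 without the second NC library). In blastocysts Pfkfb1 was at 197 and 177 in NC and at 253 and 216 in KD (1.25-fold higher, log2 difference 0.32, SE 0.22, adjusted p = 0.494; 0.21 without the first KD library). Both differences were under 1.5 times their SE. Pfkfb3, the form with the highest kinase over phosphatase activity, was at 73.4 and 42.3 in NC blastocysts and at 96.9 and 121 in KD, 1.89-fold higher (log2 difference 0.95, SE 0.39, adjusted p = 0.277). Without the second NC library the difference was 0.56.

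In morulae Pfkfb3 was at 224 and 532 in NC and at 209 and 604 in KD, so it differed by replicate number and not by group. Its share of the 4 PFKFB genes per kilobase was 15.3% and 41.4% in NC morulae and 15.1% and 39.3% in KD. Pfkfb2 was at 386 and 377 in NC blastocysts and at 297 and 332 in KD (log2 difference -0.28, adjusted p = 0.452) and overlapped in morulae, from 276 to 444. Pfkfb4 overlapped at both stages, from 199 to 357 in morulae and from 90.6 to 158 in blastocysts.

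Entry of pyruvate into mitochondria runs through a carrier made of MPC1 and MPC2, and both of its genes were lower in KD at both stages. Mpc1 (ENSMUSG00000023861, mm10 chr17:8282904-8297661) was at 1274 and 1513 in NC morulae and at 949.9 and 1054 in KD, 1.39-fold lower (log2 difference -0.47, SE 0.16, adjusted p = 0.426). In blastocysts it was at 784 and 782 in NC and at 720.2 and 545 in KD, 1.24-fold lower (log2 difference -0.32, SE 0.17, adjusted p = 0.386; -0.12 without the second KD library). Mpc2 (ENSMUSG00000026568, mm10 chr1:165460637-165481214) was at 867 and 1177 in NC morulae and at 693 and 668 in KD, 1.502-fold lower (log2 difference -0.57, SE 0.20, adjusted p = 0.429; -0.35 without the second NC library). In blastocysts Mpc2 was at 518 and 534 in NC and at 391 and 423 in KD, 1.29-fold lower (log2 difference -0.37, SE 0.16, adjusted p = 0.285). The Mpc1 share of the pair was 81.9% to 86.7% per kilobase in the 8 libraries and 56.3% to 64.8% without length. The shares of KD and NC overlapped at both stages, and the KD blastocyst libraries were at 86.7% and 82.0% per kilobase.

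Pyruvate dehydrogenase was represented by its E1 alpha subunit Pdha1, at 7611 and 8089.8 in NC morulae and at 8074 and 7874 in KD. In blastocysts Pdha1 was at 7239 and 7189 in NC and at 6723 and 6991 in KD, a difference of -0.07 (adjusted p = 0.678; -0.045 without the first KD library). The kinases that inhibit it were far lower and did not share a direction. Pdk2 was at 13.1 and 26.4 in NC morulae and at 49.95 and 49.41 in KD, 2.51-fold higher (log2 difference 1.37, SE 0.55, adjusted p = 0.475). Without the first NC library it was 0.89. In blastocysts Pdk2 overlapped, at 90.1 and 95.4 in NC and at 92.0 and 102 in KD.

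Pdk1 was at 94.2 and 97.9 in NC blastocysts and at 82.0 and 40.5 in KD (log2 difference -0.73, SE 0.42, adjusted p = 0.420; -0.23 without the second KD library). Pdk3 was at 24.3 and 30.8 in NC blastocysts and at 16.6 and 9.38 in KD (log2 difference -1.07, SE 0.59, adjusted p = 0.399; -0.69 without the second KD library). Both overlapped in morulae, Pdk1 at 8.88 to 32.5 and Pdk3 at 21.7 to 25.0. The Pdk2 share of the 3 kinases per kilobase was higher in KD at both stages: 25.9% and 43.7% against 60.9% and 52.8% in morulae, and 56.8% and 55.1% against 63.1% and 78.5% in blastocysts.

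Lactate and pyruvate cross the plasma membrane on monocarboxylate transporters. Slc16a1 (MCT1), with 98.2% to 99.7% of the level per kilobase, overlapped at both stages, at 1706 to 2380.4 in morulae and at 2404 to 2992 in blastocysts. Slc16a3 (ENSMUSG00000025161, mm10 chr11:120948480-120960868) encodes MCT4, a lactate exporter of glycolytic cells. It was at 18.6 and 32.7 in NC morulae and at 8.37 and 10.03 in KD, 2.79-fold lower (log2 difference -1.34, SE 0.67, adjusted p = 0.561). In blastocysts Slc16a3 was at 11.4 and 9.06 in NC and at 34.2 and 52.3 in KD, 4.23-fold higher (log2 difference 1.96, SE 0.55, adjusted p = 0.157). The groups lay apart at both stages, in opposite directions, and at low levels throughout.

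The difference between the stages was tested in a single fit of all 8 libraries. The KD change of Slc16a3 in blastocysts minus that in morulae was 3.29 on the log2 scale (SE 0.78, limma unadjusted p = 0.00244, adjusted p = 0.786). That of Eno1 was -0.54 (SE 0.20, unadjusted p = 0.0256, adjusted p = 0.905). These 2 of 32 genes had an unadjusted p under 0.05, beside 5.34% of the 12875 genes tested, and no gene of the 12875 passed after adjustment. The separations found at a single stage, such as those of Pdk2 and Pfkfb3, are therefore not shown to differ between stages.

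**Figure D4:**
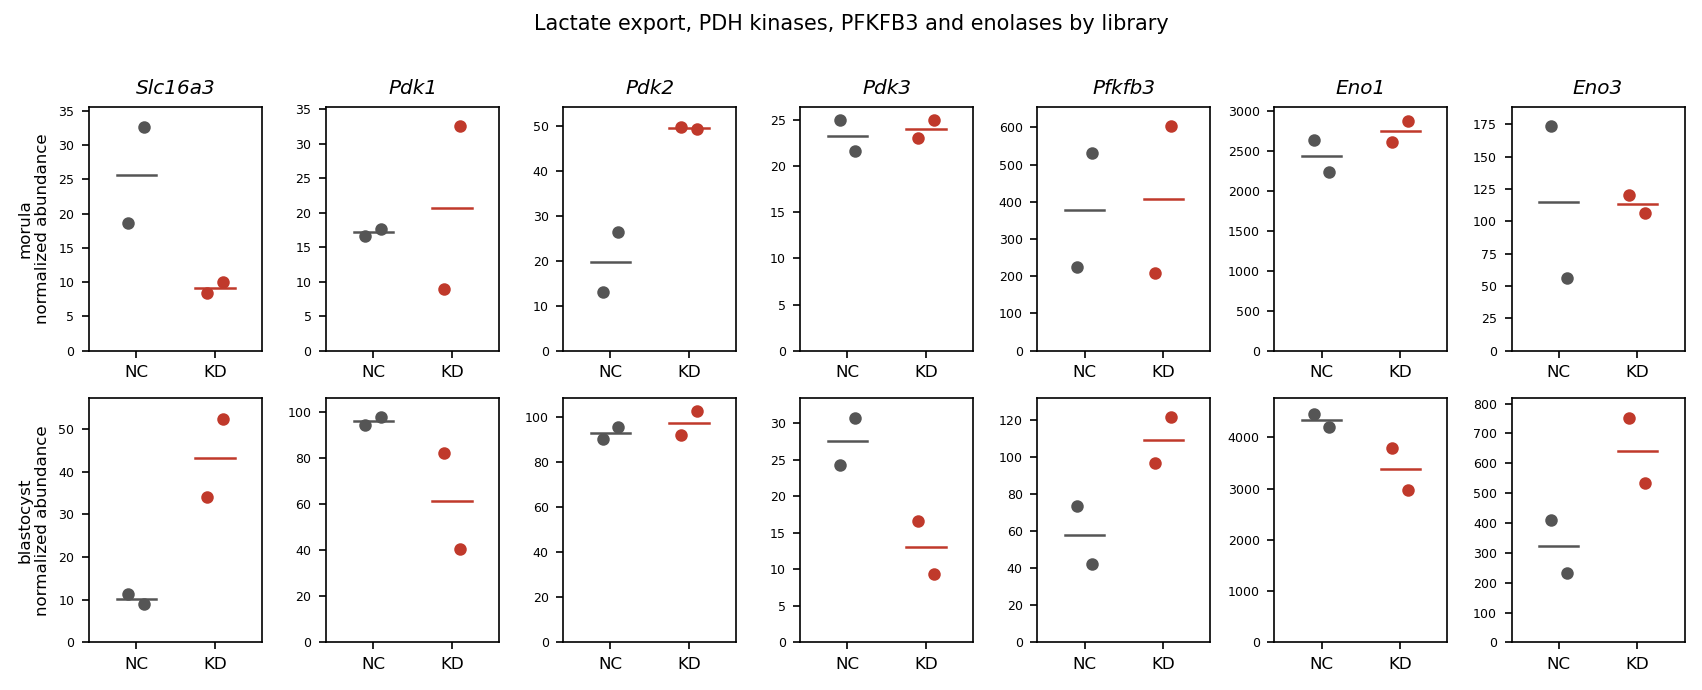
Normalized abundance per library (points, linear axis from 0) with the group mean (line) for Slc16a3, whose KD and NC libraries lay apart in opposite directions, and for Pdk1, Pdk2, Pdk3, Pfkfb3, Eno1 and Eno3, which lay apart at a single stage. Slc16a3 is at 8.37 to 10.03 in KD morulae, below NC, and at 34.2 to 52.3 in KD blastocysts, above NC.

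Lists of neighbouring pathways were read the same way, and none of their genes passed the test. Among other glycolytic isozymes and carriers, 9 of 11 tested genes in morulae and 7 of 12 in blastocysts had a higher KD mean on the log2 scale. Of all genes tested, 49.2% in morulae and 50.3% in blastocysts did, the background for this count and for those of the further lists below. Pklr, the liver-type pyruvate kinase, was at 65.5 and 97.6 in NC morulae and at 178 and 198 in KD (log2 difference 1.22, adjusted p = 0.377). Slc2a4 (GLUT4) was at 60.6 and 56.3 in NC blastocysts and at 170.5 and 128 in KD (1.32, adjusted p = 0.124). Pgam2, the muscle-type mutase, was at 321 and 355 in NC blastocysts and at 633 and 565 in KD (0.82, adjusted p = 0.101). For each of these 3 genes the libraries lay well apart.

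In the pyruvate dehydrogenase complex with pyruvate carboxylase, 3 of 8 tested genes in morulae and 2 of 9 in blastocysts were above 0, with medians of -0.14 and -0.09. Dlat, the E2 subunit, was at 1351 and 1104 in NC morulae and at 2132 and 1675 in KD (log2 difference 0.63, adjusted p = 0.399). In blastocysts Dlat was lower in KD without overlap, at 2621 and 2594 in NC and at 2476 and 2451 in KD (-0.08, limma adjusted p = 0.692). Pdpr was lower in KD morulae, at 495 and 418 in NC and at 332 and 290 in KD (-0.55, limma adjusted p = 0.464), and overlapped in blastocysts. Pdhx, the subunit that binds E3 to the complex, was at 866 and 665 in NC blastocysts and at 547 and 567 in KD (-0.45, adjusted p = 0.251), the lowest p of the list at that stage. Pdk4, a further pyruvate dehydrogenase kinase, was at 8.83 and 17.8 in NC blastocysts and at 34.1 and 31.3 in KD (1.31, adjusted p = 0.307). Pcx, the carboxylase that turns pyruvate into oxaloacetate, was at 145 and 203 in NC blastocysts and at 116 in each KD library (-0.56, adjusted p = 0.356).

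In the citric acid cycle 9 of 18 genes were above 0 at each stage, with medians of -0.01 and 0.00. In blastocysts, however, 8 of the 18 lay lower in KD without overlap (24.9% of all genes) and 3 higher (24.6%), and in morulae 3 lay lower (21.2%) and 5 higher (20.7%). Sucla2, a subunit of succinyl-CoA synthetase, was at 4056 and 3472 in NC morulae and at 2240.3 and 2636 in KD (log2 difference -0.63, adjusted p = 0.362). In blastocysts Sucla2 was also lower, at 4761 and 4273 in NC and at 3921 and 3384 in KD (-0.31, adjusted p = 0.229), as was the fumarase gene Fh1, at 2234 and 2119.5 in NC and at 1744 and 1854 in KD (-0.27, adjusted p = 0.242). Idh2, the mitochondrial NADP-dependent isocitrate dehydrogenase, was at 3827 and 3281 in NC blastocysts and at 5439 and 4486 in KD (0.48, adjusted p = 0.147). The pentose phosphate pathway had 5 of 8 genes above 0 in morulae and 3 of 8 in blastocysts, with medians of 0.12 and -0.02.

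Of gluconeogenesis and glycogen metabolism, 9 of 13 tested genes in morulae and 8 of 13 in blastocysts were above 0. Fbp1, a bisphosphatase that opposes phosphofructokinase, was at 31.7 and 27.8 in NC blastocysts and at 154 and 126 in KD (log2 difference 2.19, SE 0.35, adjusted p = 0.0766). In morulae Fbp1 was at 24.1 and 18.1 in NC and at 48.6 and 41.3 in KD (1.06, adjusted p = 0.536). Fbp2, a further bisphosphatase gene, was far more abundant, and its libraries overlapped at both stages. It was at 7789 and 7626 in NC morulae and at 7428 and 8423 in KD. In blastocysts Fbp2 was at 7049 and 7846 in NC and at 7327 and 8023 in KD. Pck2, the mitochondrial phosphoenolpyruvate carboxykinase, was at 247 and 265 in NC morulae and at 447 and 385 in KD (0.70, adjusted p = 0.403), with 0.59 in blastocysts (adjusted p = 0.170). Fbp1 and Pck2 lay higher in KD without overlap at both stages.

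Regulators of hypoxia and glycolysis had 9 of 13 genes above 0 in morulae and 10 of 13 in blastocysts. Mlxipl (ChREBP), a glucose-responsive transcription factor, was at 198 and 271 in NC morulae and at 675 and 561 in KD (log2 difference 1.41, SE 0.24, adjusted p = 0.343). Hif1a, an oxygen-regulated factor, was at 1399 and 1279.6 in NC blastocysts and at 1009.8 and 1029 in KD (-0.39, adjusted p = 0.176). Myc was at 404 and 589 in NC blastocysts and at 231 and 299 in KD (-0.89, adjusted p = 0.154). Epas1 (HIF-2 alpha) was at 8848 and 9144 in NC morulae and at 7196 and 6434 in KD (-0.40, limma adjusted p = 0.386). In blastocysts Epas1 was higher in KD, at 10179 and 10950 in NC and at 11955 and 12044 in KD (0.18, limma adjusted p = 0.293). Egln2 was higher in KD without overlap at both stages (0.36 in morulae and 0.45 in blastocysts). Hypoxia-inducible factor targets outside glycolysis had 4 of 11 genes above 0 in morulae and 6 of 10 in blastocysts, with medians of -0.09 and 0.12.

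Single genes of that last list lay on either side. Car9, a carbonic anhydrase, was at 7.03 and 14.3 in NC morulae and at 69.3 and 91.3 in KD (log2 difference 2.86, SE 0.57, adjusted p = 0.362). Ndrg1 and Bnip3l lay lower in KD morulae without overlap. Ndrg1 was at 333 and 284 in NC morulae and at 94.3 and 182 in KD (-1.23, limma adjusted p = 0.402). Bnip3l was at 3919 and 5829 in NC morulae and at 3164 and 3415 in KD (-0.54, limma adjusted p = 0.446). Vegfa was at 92.2 and 89.9 in NC blastocysts and at 253 and 236 in KD (1.41, SE 0.24, adjusted p = 0.0850). P4ha1, a collagen prolyl hydroxylase subunit, was lower in KD blastocysts, at 1407 and 1281.5 in NC and at 908 and 781 in KD (-0.67, adjusted p = 0.101).

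None of the markers of embryonic cell types passed the test, but some lay apart between the groups. Summed over 6 genes, trophectoderm markers were at 34690 and 29652 in NC morulae and at 29120.2 and 26559 in KD, with 3 of the 6 lower without overlap (21.2% of all genes were). In blastocysts the sum was 90267 and 89661 in NC and 100258 and 114015 in KD, with 4 of the 6 higher (24.6% of all genes). The 4 epiblast and pluripotency markers summed to 29345 and 30886 in NC blastocysts and to 27383 and 27921 in KD, with 3 lower (24.9% of all genes). Of 4 primitive endoderm markers, 3 were higher in KD morulae, among them Gata4, at 51.5 and 172 in NC and at 181 and 351 in KD, beside 20.7% of all genes. In blastocysts 1 of the 4 lay higher, and their sums overlapped, at 12444 and 14418 in NC and at 11937 and 14917 in KD. The part of these in the glycolytic differences was not tested, and in pooled embryos fewer cells of a type and less RNA per cell cannot be told apart.

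RNA of other cells was low. Of 12 markers of cumulus, granulosa and stromal cells, 4 were listed in morulae and 7 in blastocysts, with sums of 32.03 to 147 and 40.7 to 144 per library. Foxl2 was higher in KD at both stages, at 38.9 and 28.9 in NC and 109 and 77.1 in KD morulae and at 16.3 and 25.1 in NC and 63.9 and 42.6 in KD blastocysts. Its part in the differences above was not tested. Amh was at 1.85 and 1.03 in NC morulae and at 6.74 and 8.72 in KD. Inhba was at 0.93 and 0 in NC morulae and at 1.92 and 3.25 in KD. Both were too low for a test, both overlapped in blastocysts, and their part was not tested either. Of the other follicle cell markers, Cyp19a1, Fshr, Has2 and Ptx3 had no value listed. The 6 blood markers summed to 12.5 to 17.1 in morulae and, in blastocysts, to 18.5 and 181 in NC and 12.7 and 93.4 in KD, so they were higher in the second library of each group. Oviduct and uterine markers summed to 11.3 to 23.1 in all 8 libraries.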

How the data were processed

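Polyadenylated RNA of 20 embryos per library was taken on oligo(dT) beads after PicoPure extraction and sequenced from NEBNext Ultra libraries (12 to 15 PCR cycles, paired reads of 150 bases), per the labels' protocols. The authors deposited gene-level signal already normalized by them (called normalized abundance), with morulae and blastocysts in separate tables. The submitters' processing notes name Salmon 0.14.1, DESeq2 and mm10, without the role of either tool. The 4 column sums of a table were nearly equal. Low values were whole multiples of a library's step in 11.4% to 30.3% of cases (tolerance 0.01), so whole reads were not recovered, no count test was run, and depth gives no interval for single values. Depth was estimated as the column sum over that step.

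Tests of KD against NC used limma 3.58.1 (R 4.3.3) on log2(value + 1) (eBayes with a mean-variance trend). They covered genes with a mean of at least 10 in a table, with Benjamini-Hochberg adjustment over all of them. Adding 1 understates the log2 differences of low genes. Folds are ratios of group means of the normalized values, without that addition, so they can differ from the log2 differences. The fit of all 8 libraries covered the 12875 genes passing in both tables. With 2 libraries against 2, a permutation test cannot go below 0.333. Exon lengths and gene coordinates come from GENCODE vM21 on mm10; near-identical copies were found with blastn 2.17.0. Strand of the counting is not given, so antisense and overlapping genes cannot be separated. The members and lists were chosen with earlier results of these data known. Library values are given for members that lay apart at both stages, or by at least 0.5 at a stage. They are also given for both leading isozymes of a step. Of other lists, up to 3 genes with the smallest p in a table may be named, and a few others are given beside related genes. Alternatives were pseudocounts of 0.5 and 10, no filter, a mean of 50, quantile and median-ratio scaling, no trend, a replicate block and leaving out each library.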

Additional observations from a re-analysis of the deposited data

Results flagged for a closer look

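Slc16a3 (MCT4) drew attention because its libraries lay apart in opposite directions at the 2 stages. The KD difference in blastocysts was above that in morulae by 3.29 on the log2 scale (SE 0.78, limma unadjusted p = 0.00244), which did not pass after adjustment over the 12875 genes tested (adjusted p = 0.786), so a difference between stages is not shown. It was 2.75 to 3.83 with single replicates left out. The gene was at 8.37 to 52.3 normalized abundance units in the 8 libraries. The cause was not tested.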

How the results depend on the processing

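Smarca5 kept its direction and its adjusted p under 0.05 under each alternative except the fit without a mean-variance trend, where its log2 differences were -4.32 (limma adjusted p = 0.111) in morulae and -3.11 (adjusted p = 0.103) in blastocysts and 0 genes were called at either stage. Without the filter, 27 genes were called in blastocysts in place of 12. Leaving out single replicates gave 1 to 3 called genes in blastocysts, 0 to 1 for the difference between stages, and a median log2 difference of the set of 0.080 to 0.23 in morulae and -0.038 to 0.070 in blastocysts; the sign there turned without NC replicate 2.

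With the replicate number as a block, 892 of the 13404 genes tested were called in morulae and 1208 of 13651 in blastocysts. For the difference between stages 1 of 12875 was called. Of the 32 genes of the set, 6 were then called higher in morulae (Gapdh, Ldha, Pfkl, Pfkp, Pgk1 and Slc2a1) and 3 lower (Hk1, Mpc1 and Mpc2). In blastocysts 5 were called higher (Eno3, Gapdh, Pfkp, Pgk1 and Slc2a3) and 1 lower (Eno1). The calls over all genes were not split by direction in this fit, so no background by direction stands beside these counts. The labels do not say what the number stands for, and the deviations of same-numbered libraries correlated at 0.297 in morulae and 0.146 in blastocysts, over only 2 pairs. The cause of the larger counts was not tested. None of the 33 differences of genes whose libraries lay apart turned sign in any alternative in which they were tested. With a replicate left out they cannot turn, because both KD libraries lie on one side of both NC libraries. Their constant sign is therefore no measure of stability. Of the overlapping genes, 14 of 17 in morulae and 9 of 14 in blastocysts turned with a replicate left out. At a mean of at least 50, 26 genes of the set remained tested in morulae and 28 in blastocysts.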
